A study of Mus musculus with 6 samples.

Results

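The miR-34 and miR-449 family was followed through 6 small RNA libraries of mouse spinal cord, 3 labelled SCI (spinal cord injury) and 3 labelled control. The family members are the rows of the deposited miRNA table with 7 fixed names, mmu-miR-34a-5p, mmu-miR-34a-3p, mmu-miR-34b-5p, mmu-miR-34b-3p, mmu-miR-34c-5p, mmu-miR-34c-3p and mmu-miR-449a-5p (written below without the species prefix), out of 1482 rows in all. All 7 were found, and all 7 were among the 614 rows that passed the filter on low counts. Per the series' design text, the SCI mice had the vertebral arch opened at T10 and the cord then contused by a 10 g weight falling 20 mm, while the control mice had the laminectomy alone. Tissue came from a stretch of cord of about 1 cm centred on T10, 2 days after the operation in both groups, so every library holds all the cell types of that segment. The labels used here give no strain, sex, age or genotype. The design text counts 3 mice a group, so each library is read as 1 mouse and the p-values measure the spread between mice.

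The miR-34 family is a small set of miRNAs best known as targets of the tumour suppressor p53. p53 binds and activates the gene of miR-34a and the shared gene of miR-34b and miR-34c, and the mature miRNAs repress mRNAs of the cell cycle and of survival pathways. miR-34b, miR-34c and the miR-449 miRNAs have a second role in multiciliated epithelium, where they act redundantly in the making of motile cilia, and ependymal cells, which line the central canal of the cord, carry such cilia. miR-34a is also made by neurons. A miRNA selects its targets mainly through its seed, bases 2 to 8 counted from the 5′ end, and each hairpin precursor can give a 5p and a 3p mature strand, of which one is usually kept and the other mostly degraded.

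The mature sequences show which members can address the same targets, and are taken from RefSeq on GRCm38.p6, where 6 of the 7 members matched by name. The 5p strands share the seed GGCAGUG, in capitals here together with the seed of each 3p strand. miR-34c-5p is named only.
miR-34a-5p: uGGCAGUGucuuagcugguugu
miR-34b-5p: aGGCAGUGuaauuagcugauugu
miR-449a-5p: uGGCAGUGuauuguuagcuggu
miR-34a-3p: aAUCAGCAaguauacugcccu
miR-34b-3p: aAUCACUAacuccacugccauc
miR-34c-3p: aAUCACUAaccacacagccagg
miR-34b-3p and miR-34c-3p share the seed AUCACUA, which differs from that of miR-34a-3p at G6C and C7U (base of miR-34a-3p first, positions from the 5′ end). Compared base by base from the 5′ end without gaps, miR-34b-3p and miR-34c-3p are equal at 17 of 22 bases. miR-34a-5p equals miR-449a-5p at 15 of 22 bases and miR-34b-5p at 11 of 22. The RefSeq table holds 1 further mature miRNA with the seed GGCAGUG, the cluster neighbour miR-449c-5p (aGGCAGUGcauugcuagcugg), which differs from miR-449a-5p at U1A, U9C and U14C (base of miR-449a-5p first).

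The 4 hairpins of the members lie at 3 loci. Mir34a is at chr4:150068454-150068555 on the plus strand, and its 3′ end overlaps an exon of Gm37795, an unconfirmed transcript of GENCODE. Mir34c (chr9:51103034-51103110) and Mir34b (chr9:51103562-51103645) lie 451 bases apart on the minus strand, inside an intron of Btg4, which is transcribed from the opposite strand. Mir449a (chr13:113037534-113037624, plus strand) lies in an intron of Cdc20b, a gene of multiciliated cells, 1442 bases downstream of Mir449c. The paired hairpins of the chromosome 9 locus are printed in full to show where the strands compared below come from. The capitals mark GGCAGUG, which occurs once in each.
Mir34b: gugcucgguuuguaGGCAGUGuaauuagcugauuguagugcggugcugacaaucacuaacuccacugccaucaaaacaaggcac
Mir34c: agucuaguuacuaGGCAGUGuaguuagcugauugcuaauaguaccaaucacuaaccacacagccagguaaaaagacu

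Total counts were 7100472 to 8889977 in the SCI-labelled and 5568491 to 7360149 in the control-labelled libraries. The direction of the labels was checked with 6 miRNAs of leukocytes and tissue injury. All 6 passed the test as lower in the SCI-labelled libraries, against 23.1% of all tested rows. Their summed level there was 12345 to 13572 CPM (counts per 1000000 counted reads, TMM-scaled). In the control-labelled libraries it was 77736 to 132823 CPM. miR-21a-5p made up most of each sum, at 11196 to 12739 CPM in the SCI-labelled and 75088 to 129137 CPM in the control-labelled libraries. In each of the 6 rows every SCI-labelled library was below every control-labelled one. This runs against what is known of contused cord, and the deposited columns of the SCI-labelled samples carry names that start with Normal. An exchange of the labels is possible and cannot be settled from these files, so groups are called by their labels throughout and each direction is that of the labels as deposited. Control-labelled library 3 stood apart from libraries 1 and 2 of its group in many rows, and results that rest on it are given without it too.

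Set against the control-labelled libraries, 1 of the 7 members was higher in the SCI-labelled ones and 1 was lower, and 5 did not pass edgeR's quasi-likelihood test at a Benjamini-Hochberg adjusted p of 0.05. Over all 614 tested rows 16.3% were called higher and 23.1% lower, so these counts are near the background. The median log2 fold change was -0.31 over the members and -0.07 over all tested rows. miR-34a-5p, the p53-responsive strand, was the one called higher. miR-34c-3p, the minor strand of a hairpin of the ciliated-cell locus, was the one called lower, while miR-34c-5p, the main strand of the same hairpin, did not pass.

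miR-34a-5p, which represses cell cycle and survival mRNAs downstream of p53, was at 2193, 1669 and 2039 CPM in SCI-labelled libraries 1 to 3 and at 613, 429 and 1205 CPM in control-labelled libraries 1 to 3. The groups did not overlap, and control-labelled library 3 lay closest to the SCI-labelled ones. The means were 1967 ± 269 CPM in the SCI-labelled and 749 ± 406 CPM in the control-labelled group (SD, n = 3 each), a 2.63-fold higher level (log2 1.39, SE 0.36, 95% interval 0.58 to 2.21; edgeR adjusted p = 0.0157). Leaving out SCI-labelled library 1 or 3 ended the call, with adjusted p-values of 0.0529 and 0.0611 and with 9.87% and 8.46% of all rows then called higher, and the log2 change was 1.96 without control-labelled library 3.

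miR-34a-3p, the strand of the same hairpin that is mostly degraded, had 23, 16 and 19 counts in the SCI-labelled and 17, 6 and 46 counts in the control-labelled libraries. Its highest and its lowest level both came from the control-labelled group. It averaged 2.49 ± 0.35 CPM in the SCI-labelled and 3.07 ± 2.19 CPM in the control-labelled group (SD, n = 3 each). The log2 change of -0.35 (95% interval -1.50 to 0.80; edgeR adjusted p = 0.611) did not pass, and its sign was positive with limma voom and without control-labelled library 3.

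miR-34c-5p, which with miR-34b and miR-449 acts in the formation of motile cilia, was at 892, 776 and 666 CPM in the SCI-labelled and at 742, 767 and 1247 CPM in the control-labelled libraries. The groups overlapped, and apart from control-labelled library 3 all values lay between 666 and 892 CPM. The means were 778 ± 113 CPM in the SCI-labelled and 919 ± 285 CPM in the control-labelled group (SD, n = 3 each). The log2 change was -0.24 (95% interval -0.81 to 0.33; edgeR adjusted p = 0.478) and turned to 0.09 without control-labelled library 3. The interval excludes a change of the size of that of miR-34a-5p.

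miR-34c-3p, the minor strand of the same hairpin, was at 10.0, 14.1 and 11.8 CPM in the SCI-labelled and at 28.8, 27.2 and 27.1 CPM in the control-labelled libraries. The control-labelled libraries were nearly equal, library 3 included, and every one was above every SCI-labelled library. Its level in the SCI-labelled libraries was 2.31-fold lower, a log2 change of -1.21 with an SE of 0.21 (edgeR adjusted p = 0.00289). Its call and its direction held under all 13 alternatives.

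miR-34b-3p, the abundant strand of the neighbouring hairpin and the strand with the same seed as miR-34c-3p, was at 31.3, 42.5 and 41.5 CPM in the SCI-labelled and at 70.3, 52.1 and 53.1 CPM in the control-labelled libraries. The groups did not overlap here either. There were 3.12, 3.01 and 3.52 reads of miR-34b-3p per read of miR-34c-3p in the SCI-labelled and 2.44, 1.92 and 1.96 in the control-labelled libraries, so its ratio to miR-34c-3p was higher in every SCI-labelled library. Its log2 change of -0.61 (95% interval -1.11 to -0.10) had an edgeR adjusted p of 0.0584 and so did not pass. It passed as lower with the library total as the only scaling (adjusted p = 0.0393), with limma voom (0.0351) and without control-labelled library 3 (0.0313), where 23.5%, 26.2% and 28.2% of all rows were called lower. Counting miR-34a-5p, 1 member was higher and 2 were lower with no overlap between the groups, against 23.3% and 28.0% of all tested rows.

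miR-34b-5p, the minor strand of its hairpin, had 42, 31 and 32 counts in the SCI-labelled and 12, 18 and 54 counts in the control-labelled libraries. miR-449a-5p, the member from the Cdc20b intron, had 22, 19 and 17 counts in the SCI-labelled and 14, 13 and 39 counts in the control-labelled libraries. In both, control-labelled library 3 was the highest of all 6 libraries and the groups overlapped. Neither passed. The log2 change was 0.21 for miR-34b-5p (95% interval -0.77 to 1.18, edgeR adjusted p = 0.727). For miR-449a-5p it was -0.31 (-1.19 to 0.57, edgeR adjusted p = 0.553). Changes inside these intervals could not be shown with counts this low and with this spread between libraries. The control-labelled SD was 59.2% of the mean for miR-34b-5p and 43.3% for miR-449a-5p. For miR-34a-5p, with far more reads, it was 54.2%. Without control-labelled library 3 the log2 change was 0.86 for miR-34b-5p (edgeR adjusted p = 0.0574) and 0.17 for miR-449a-5p (0.719).

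**Figure D1:**
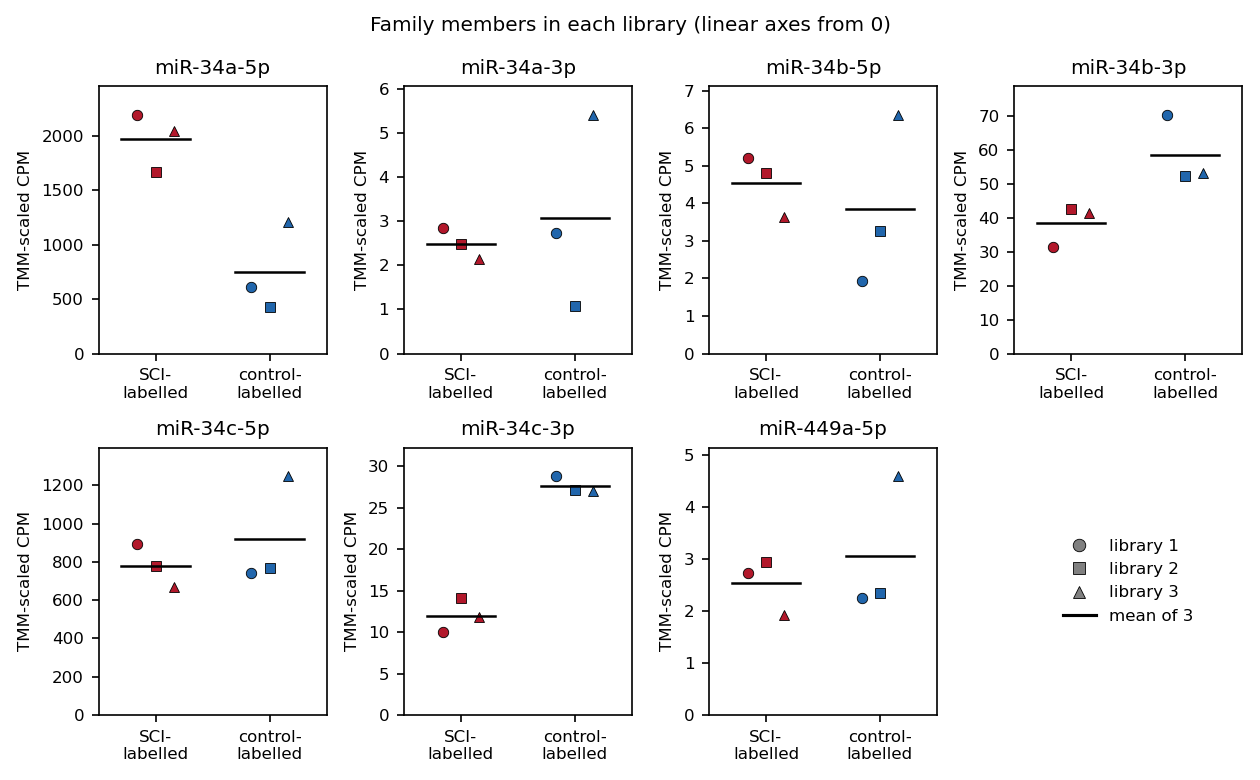
Level of each member in TMM-scaled CPM (vertical axes, linear, from 0) in the SCI-labelled (left, red) and control-labelled (right, blue) libraries. Each symbol is a library and the bar the mean of 3. miR-34a-5p separates the groups upward and miR-34b-3p and miR-34c-3p downward, and control-labelled library 3 (triangle) is the highest of its group in every panel but those of miR-34b-3p and miR-34c-3p.

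**Figure D2:**
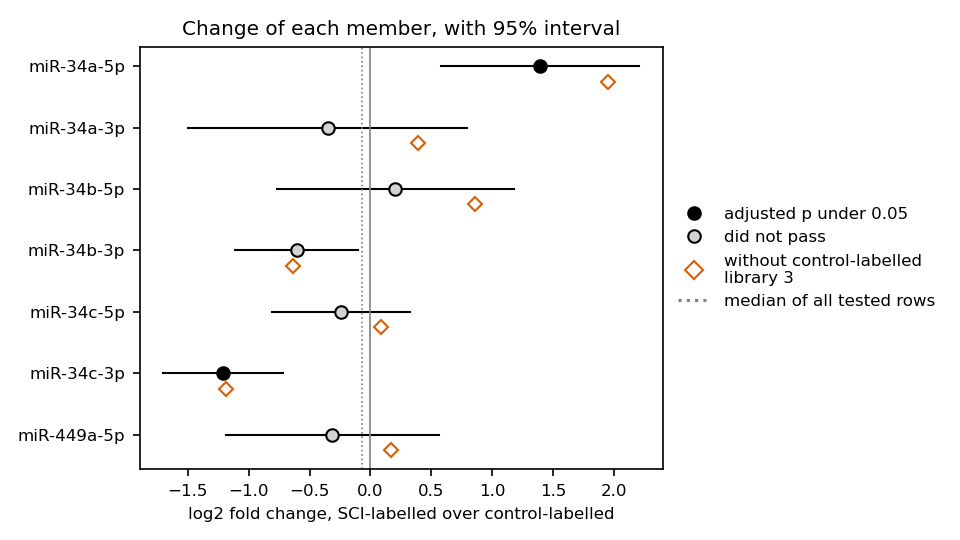
Log2 fold change of each member, SCI-labelled over control-labelled libraries (horizontal axis), with its 95% interval from edgeR's quasi-likelihood fit over 614 rows. Filled circles passed the test, grey circles did not, and open diamonds give the value without control-labelled library 3, which moved miR-34a-3p, miR-34c-5p and miR-449a-5p across 0 and left miR-34c-3p at -1.19.

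In order of mean level, the SCI-labelled libraries held miR-34a-5p, miR-34c-5p, miR-34b-3p, miR-34c-3p, miR-34b-5p, miR-449a-5p and miR-34a-3p. In the control-labelled libraries miR-34c-5p came before miR-34a-5p and miR-34a-3p before miR-449a-5p. A read spans a mature miRNA whole and the mature sequences are 21 to 23 bases long, so levels of members were compared as CPM without a length term. How evenly the library preparation captured each sequence was not tested, so the orders and shares given here are those of reads. miR-449a-5p and miR-34a-3p overlapped in both groups and have no order beyond their spread. miR-34b-5p lay above both in the SCI-labelled libraries and overlapped both in the control-labelled ones. By mean level over all 6 libraries, miR-34a-5p ranked 68 and miR-34c-5p 100 among the 614 tested rows.

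Of miR-34a-5p and miR-34c-5p, the one with more reads was a different one in each group. In the SCI-labelled libraries there were 0.407, 0.465 and 0.327 reads of miR-34c-5p for each read of miR-34a-5p, and in the control-labelled libraries there were 1.21, 1.79 and 1.03. These ratios are taken within a library and do not depend on the scaling. The mean log2 ratio was -1.34 ± 0.26 in the SCI-labelled and 0.39 ± 0.41 in the control-labelled group (SD, n = 3 each; exact two-sided permutation p = 0.1, the smallest that 3 against 3 can give, and 0.1 when adjusted over 3 such tests). The log2 ratio of miR-449a-5p to miR-34a-5p was likewise lower in every SCI-labelled library, at -9.62 ± 0.45 in the SCI-labelled and -7.88 ± 0.32 in the control-labelled group (SD, n = 3 each; exact permutation p = 0.1, adjusted 0.1).

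Of the 1482 deposited rows, 1175 matched a RefSeq mature sequence by name, and only those could be searched for the seed. Summed over the 5 rows counted with the family seed (miR-34c-5p is among them by its name), the 5p strands came to 3093, 2453 and 2711 CPM in the SCI-labelled and to 1359, 1201 and 2464 CPM in the control-labelled libraries. The sums overlapped, since control-labelled library 3 exceeded SCI-labelled library 2 by a little. miR-34a-5p made up 71.4% ± 3.61 of these reads in the SCI-labelled and 43.2% ± 6.80 in the control-labelled group (SD, n = 3 each; exact permutation p = 0.1, adjusted 0.1), with no overlap. miR-34c-5p made up 24.6 to 31.6% in the SCI-labelled and 50.6 to 63.8% in the control-labelled libraries, and the other 3 rows together 0.205 to 0.322% in the SCI-labelled and 0.330 to 0.467% in the control-labelled libraries. miR-449c-5p had 0, 1 and 0 counts in the SCI-labelled and 2, 0 and 2 counts in the control-labelled libraries. A count of 0 allows up to 3 counts, which is 0.372 and 0.340 CPM in SCI-labelled libraries 1 and 3 and 0.543 CPM in control-labelled library 2.

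**Figure D3:**
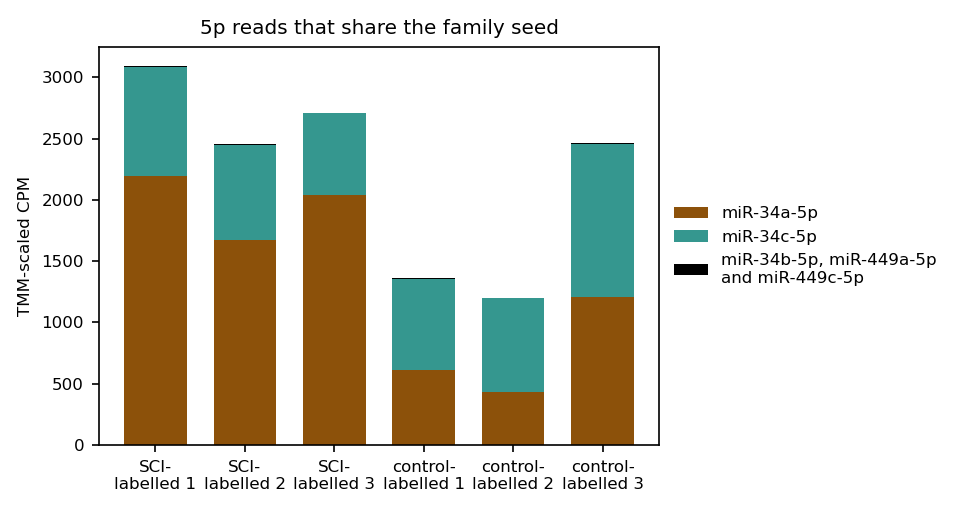
Summed level of the 5p rows that share the seed GGCAGUG, in TMM-scaled CPM (vertical axis from 0), for each library. miR-34a-5p (brown) is the larger part in the 3 SCI-labelled libraries and miR-34c-5p (green) in the 3 control-labelled ones, and the remaining 3 rows form a line too thin to see apart.

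The strands of the miR-34 hairpins were then compared within each hairpin. Per read of the 5p strand, miR-34c gave 0.0112, 0.0182 and 0.0177 reads of the 3p strand in the SCI-labelled and 0.0388, 0.0354 and 0.0217 in the control-labelled libraries. The 3p share was thus lower in every SCI-labelled library, with control-labelled library 3 closest to them. The log2 change of the 3p to 5p ratio was -0.97 (edgeR diffSpliceDGE adjusted p = 0.0117 over 179 hairpins, of which 30.2% were called). This call ended with no filter (adjusted p = 0.0729, 8.30% of hairpins called). It also ended on leaving out SCI-labelled library 1 (0.131, 15.5% called), SCI-labelled library 3 (0.0525, 15.4%) or control-labelled library 2 (0.0559, 19.9%).

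For miR-34a the 3p strand gave 0.00130, 0.00149 and 0.00106 reads per 5p read in the SCI-labelled and 0.00444, 0.00253 and 0.00449 in the control-labelled libraries, again without overlap. The log2 change was -1.74 (diffSpliceDGE adjusted p = 0.0245), a call that ended whichever SCI-labelled library was left out (adjusted p = 0.0987, 0.0648 and 0.137 without 1, 2 and 3, with 17.6% of hairpins called without 2). Here the 5p strand was higher and the 3p strand did not pass; in miR-34c it was the 3p strand that was lower.

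miR-34b is the hairpin of the family whose 3p strand is the abundant one, with 6.02, 8.84 and 11.4 reads of 3p per 5p read in the SCI-labelled and 36.6, 16 and 8.35 in the control-labelled libraries. The groups overlapped through control-labelled library 3. The log2 change of -0.81 did not pass (diffSpliceDGE adjusted p = 0.149), and without control-labelled library 3 it was -1.49 and passed (0.00447, with 38.6% of hairpins called). The ratio rests on 12 to 54 reads of miR-34b-5p a library. Per read of miR-34b-5p there were 161 to 386 reads of miR-34c-5p, which resembles it. Whether reads were split between these 2 rows was not tested.

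**Figure D4:**
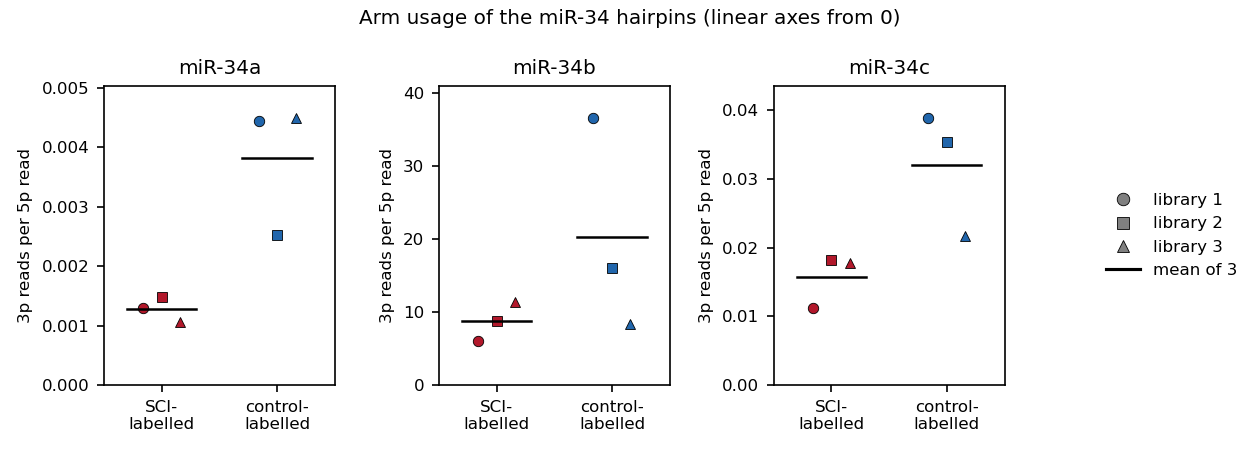
Reads of the 3p strand per read of the 5p strand (vertical axes, linear, from 0) for the 3 miR-34 hairpins in SCI-labelled (left, red) and control-labelled (right, blue) libraries, with the mean of 3 as a bar. The ratio is lower in every SCI-labelled library for miR-34a and miR-34c, while miR-34b overlaps through control-labelled library 3 at 8.35.

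The members did not vary alike across the 6 libraries. Likeness was measured as the root mean square difference of log2 CPM after centring each row on its own mean, so that 0 means the same profile. Among the 21 pairs of members, miR-34c-5p and miR-449a-5p were closest, at 0.12. They come from different chromosomes and differ widely in level. miR-449a-5p had only 13 to 39 counts a library, so counting error limits how closely its profile can be placed. There were 327, 263 and 346 reads of miR-34c-5p per read of miR-449a-5p in the SCI-labelled and 331, 326 and 272 in the control-labelled libraries. miR-34a-5p and miR-34c-3p were farthest apart, at 1.45. miR-34c-5p and miR-34c-3p, strands of one hairpin, were 0.60 apart.

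Control-labelled library 3 stood above libraries 1 and 2 of its group in every 5p strand. Relative to the mean of control-labelled libraries 1 and 2 on the log2 CPM scale, it was higher by 1.49 for miR-34a-3p, 1.25 for miR-34b-5p, 1.23 for miR-34a-5p, 0.92 for miR-449a-5p and 0.73 for miR-34c-5p. For miR-34b-3p and miR-34c-3p the same difference was -0.19 and -0.05. Over all tested rows its median was -0.03, with 5.70% of rows at or above the difference of miR-34a-5p and 17.1% at or above that of miR-34c-5p. In the same library the summed level of the 3 skeletal muscle miRNAs was 37658 CPM, against 9777 to 20390 CPM in the SCI-labelled group and 8271 and 11900 CPM in control-labelled libraries 1 and 2, and none of those 3 was at 0 in any library. Between the groups miR-1a-3p had a log2 change of -0.32, miR-133a-3p of -0.83 and miR-206-3p of -1.88, with edgeR adjusted p-values of 0.659, 0.470 and 0.110. The part of muscle tissue in the values of that library was not tested.

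Among the 267 other rows with a mean of at least 50 CPM, the profiles most like that of miR-34a-5p were those of miR-153-3p, a miRNA of neurons (0.12), miR-1298-3p (0.23) and miR-329-5p of the imprinted Dlk1-Dio3 region (0.24), where the median over the 267 rows was 0.91. miR-153-3p was at 168, 119 and 155 CPM in the SCI-labelled and at 56.0, 36.7 and 93.0 CPM in the control-labelled libraries, with the same order of libraries within the control-labelled group as miR-34a-5p. Most like miR-34c-5p were miR-708-5p and miR-484 (0.15 each) and miR-29a-3p (0.18), against a median of 0.55. These are descriptions over 6 libraries that share their groups.

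**Figure D5:**
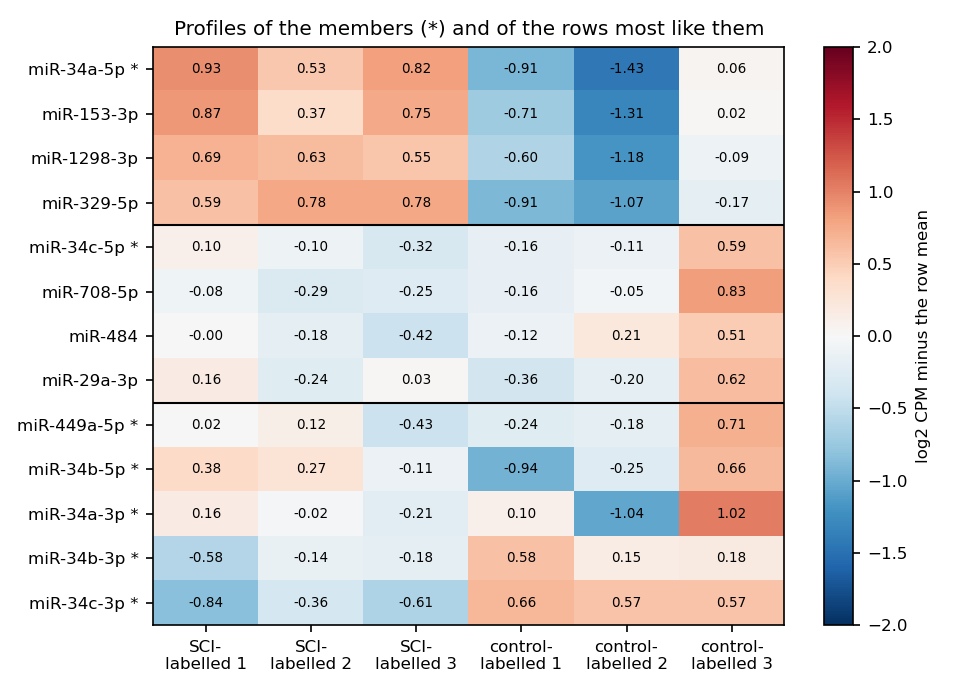
Log2 CPM of each row minus its own mean over the 6 libraries (colour and printed value), for the members (marked with a star) and for the 3 rows most like miR-34a-5p and miR-34c-5p. The block led by miR-34a-5p is high in the SCI-labelled libraries, the block led by miR-34c-5p is high in control-labelled library 3, and miR-34c-3p in the lowest row runs from -0.84 to -0.36 in SCI-labelled and 0.57 to 0.66 in control-labelled libraries.

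None of the other tested miRNAs tied to p53 was called higher with all 6 libraries. A list of 12 miRNAs whose genes p53 activates or whose processing it aids, mostly known from human cells, had 11 rows in the table, all tested. None passed as higher, 6 passed as lower and 5 did not pass edgeR's test, with a median log2 change of -0.89. The counts are of rows, and rows that come from the same locus were not merged. Over all 614 tested rows 16.3% were called higher and 23.1% lower, and 11 rows are few for setting 0 against 16.3%. No row of the list was higher at an unadjusted edgeR p of 0.05 either. DESeq2 and limma voom called 0 higher, while limma voom had 1 row higher at an unadjusted p of 0.05. Without control-labelled library 3, 1 was called higher, against 24.0% of all rows. The 6 lower rows were miR-16-5p (log2 -2.31, adjusted p = 7.02e-05), miR-15a-5p (-1.94), miR-16-1-3p (-0.89), miR-215-5p (-1.97), miR-200c-3p (-3.65) and miR-141-3p (-2.27). miR-141-3p had 2, 3 and 4 counts in the SCI-labelled and 16, 8 and 15 counts in the control-labelled libraries. It passed the filter on low counts through the control-labelled libraries alone. miR-200c-3p and miR-141-3p are also on the epithelial list below. miR-143-3p, which p53 helps to process, had a log2 change of 0.05, and miR-192-5p of -0.27, and neither passed. Of 5 miRNAs described as repressing p53 itself, miR-504-5p was higher (log2 0.91, adjusted p = 0.00892) and miR-25-3p lower (-2.05, adjusted p = 0.00167). The other 3, miR-30d-5p (-0.33), miR-125b-5p (-0.18) and miR-33-5p, did not pass. miR-33-5p was at 21.9, 17.0 and 21.7 CPM in the SCI-labelled and 14.7, 9.41 and 16.6 CPM in the control-labelled libraries, without overlap. Limma voom called 2 of the 5 higher and 2 lower, against 20.4% and 26.2% of all rows. Without control-labelled library 3 edgeR also called 2 higher and 2 lower, against 24.0% and 28.2%. The list's median was -0.18.

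The other miR-449 rows were close to 0. Of 6 names listed, 3 were in the table, and miR-449a-3p, miR-449c-5p and miR-449c-3p together reached 0 to 0.155 CPM in the SCI-labelled and 0.181 to 0.353 CPM in the control-labelled libraries, below the filter. Of the members known from multiciliated cells, miR-34c-5p and miR-34b-3p had the most reads. miR-449a-5p was at 1.93 to 2.94 CPM in the SCI-labelled and 2.24 to 4.59 CPM in the control-labelled libraries. Which cells these reads came from was not resolved. In whole tissue, fewer cells of a type and less RNA per cell cannot be told apart.

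Markers of several cell types moved between the groups beside the members. Over all tested rows 16.3% were called higher and 23.1% lower. Of 6 neuron miRNAs, 3 passed as higher on the SCI-labelled side and 3 did not pass. Without control-labelled library 3, 5 of them passed as higher, against 24.0% of all rows. Their summed level was 32175 to 37828 CPM in the SCI-labelled and 12688 to 15724 CPM in the control-labelled libraries, and none was at 0. The higher ones were miR-128-3p (log2 1.46), miR-218-5p (1.42) and miR-129-5p (1.26), of which the first 2 made up most of the summed level. miR-137-3p (0.79), miR-138-5p (0.61) and miR-124-3p (-0.52) did not pass. miR-124-3p was at 797, 756 and 812 CPM in the SCI-labelled and at 660, 725 and 2008 CPM in the control-labelled libraries. Their part in the higher level of miR-34a-5p was not tested.

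Of 3 miRNAs listed for choroid plexus, miR-1298-5p (log2 1.86) and miR-204-5p (1.29) were higher and miR-448-3p (0.23) did not pass. Their sums were 3568 to 4207 CPM in the SCI-labelled and 997 to 1748 CPM in the control-labelled libraries. The tissue was spinal cord, and which of its cells gave these rows was not tested. The 5 epithelial miRNAs of the miR-200 family summed to 8.42 to 13.8 CPM in the SCI-labelled and 36.0 to 83.4 CPM in the control-labelled libraries, and the 4 that were tested were all lower. Among these 4, miR-141-3p passed the filter through the control-labelled libraries alone. The 3 red cell miRNAs were also all lower, at 2442 to 5156 CPM in the SCI-labelled and 8993 to 32176 CPM in the control-labelled group. The median log2 change was 1.02 for the neuron list, 1.29 for the choroid plexus list, -2.27 for the epithelial list and -2.65 for the red cell list. No marker of these 4 lists was at 0 in a library. The part of the cells behind these rows in the members' values was not tested.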

How the data were processed

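The authors deposited one table with raw read counts per miRNA row and library, and TPM values that equal CPM from the column totals (largest difference 2.74e-05) and were used only for that check. Bowtie and mm10 are named in the submitters' processing notes. The miRBase release, mismatch limit and treatment of multi-mapping reads: not given in the sources used here. The 5p rows of miR-34b and miR-34c resemble each other, so reads could be split between them. All 12 value columns were matched through the sample descriptions; the column names of the SCI-labelled samples start with Normal.

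Counts were analysed with edgeR 4.0.16 in R 4.3.3: filterByExpr with a minimum count of 10, TMM scaling, a robust quasi-likelihood F test of group without covariates, and Benjamini-Hochberg adjustment over 614 rows. Log2 changes are SCI-labelled minus control-labelled, with the SE taken as the size of the change over the square root of F. Arm usage was tested with diffSpliceDGE. Log2 CPM for profiles used a prior count of 2. Alternatives were RLE, upper-quartile and no scaling, no filter, DESeq2 1.42.0, limma 3.58.1 voom with quality weights, a replicate block, and each library left out. Steps were tested on simulated data. Libraries of a group differed by far more than sampling noise. Floors cover counting error only. Sequences and hairpin positions came from RefSeq, and host genes from GENCODE M21, both on GRCm38, which mm10 denotes. The members, the lists and the rule for named miRNAs were chosen with earlier results of these data known. The rule names all members, rows with their seed, the 3 most alike rows, the 3 most abundant of each list, and members of small counts. miR-15a-5p, miR-16-1-3p, miR-215-5p, miR-141-3p and miR-33-5p were named after their values were seen.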

Additional observations from a re-analysis of the deposited data

How the results depend on the processing

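The lower level of miR-34c-3p and the directions of miR-34a-5p, miR-34b-3p, the 3 arm ratios and the within-library ratios held under every alternative run. The number of members lower was 2 in place of 1 with limma voom and with unscaled library totals, where miR-34b-3p passed (log2 -0.64 and -0.68), and ran from 1 to 2 as single libraries were left out. The number higher ran from 0 to 1, since miR-34a-5p (1.10 to 1.96) lost its call without SCI-labelled library 1 or 3. With limma voom miR-34a-3p stood at 0.18. Leaving out single libraries gave -0.74 to 0.39 for miR-34a-3p, -0.035 to 0.86 for miR-34b-5p, -0.69 to -0.39 for miR-34b-3p, -0.37 to 0.087 for miR-34c-5p and -0.48 to 0.17 for miR-449a-5p. For the arm ratios it gave -1.84 to -1.56 for miR-34a, -1.49 to -0.35 for miR-34b and -1.28 to -0.74 for miR-34c. With no filter the change of the miR-34c arm ratio was -0.94 and did not pass. The causes were not tested.

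Scaling by the upper quartile moved the median of all rows by 0.11 on the log2 scale, and miR-34a-5p then stood at 1.54 and miR-34c-3p at -1.09. Over all rows the calls were 100 higher and 142 lower, against 120 and 120 by the upper quartile, 152 and 179 without control-labelled library 3, 63 and 97 without SCI-labelled library 1 and 54 and 87 without SCI-labelled library 3. Hairpins with a called arm ratio were 54, against 29 to 71 as single libraries were left out. Same-numbered libraries did not deviate together (r of -0.26, 0.17 and -0.18 for numbers 1 to 3), and SCI-labelled library 1 deviated most like control-labelled library 3. With 3 libraries a group this cannot exclude a pairing or a shared batch, and the deposited column names number the control-labelled libraries differently. With the replicate block, miR-34a-5p stood at 1.52 and miR-34c-3p at -1.22, no member's call changed, and 78 rows were higher and 112 lower. Members under 10 CPM are limited by their counts as well as by the spread between libraries.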
